A study of Mus musculus with 18 samples.

Results

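In mouse embryonic stem cells (mESCs), 7334 regions of the autosomes carried a peak of the repressive histone mark H3K9me3 in both wild-type and both *Dhx9* knockout (KO) libraries and no peak in either *Uhrf1* KO library. They were chosen by this pattern of peaks. Overlapping or touching peaks of all 6 peak lists were merged into 154338 regions of chromosomes 1 to 19, of which 73824 had a peak in both wild-type libraries and 55331 also had one in both *Dhx9* KO libraries. The 7334 regions, called members below, made up 13.3% of those 55331 and spanned 40.2 Mb, with a median length of 4600 bp (200 to 40200 bp). For comparison, 34626 regions had a peak in all 6 libraries (kept regions, median length 6600 bp), 3364 had none in either knockout, and 509 were without a peak in *Dhx9* KO cells alone.

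H3K9me3 was measured by chromatin immunoprecipitation and sequencing (ChIP-seq) in E14TG2a cells, an mESC line, of 3 genotypes with 2 libraries each: wild-type, *Dhx9* KO and *Uhrf1* KO. The *Uhrf1* KO lines were clones picked after CRISPR-Cas9 editing of mESCs that already held the inducible silencing system of the study, a reporter with a TetR-KRAB repressor. Where the paper compares H3K9me3 at imprinted loci, it labels its wild-type cells as holding the reporter too. The sample titles do not state the reporter for any of the 3 genotypes. The paper names 2 biological replicates for each ChIP-seq sample. How the *Dhx9* KO cells were made is not given in the sources used here. Whether the libraries of a genotype came from separate clones or cultures is not given either, so what the spread between replicates covers is not known. The lists hold no expression values, so the cell type could not be checked against its markers, and no list reports on the targeted genes. The lists differed in size, with 114056 to 124071 autosomal peaks in the wild-type and *Dhx9* KO libraries against 67953 and 90949 in *Uhrf1* KO replicates 1 and 2, and with 19269137 to 20600757 against 6542496 and 16558383 ChIP reads in peaks. At peaks with identical limits, the background reads were the same in wild-type replicate 1 and in each *Dhx9* KO list (100% of 5770 and of 3955 peaks) but not in the *Uhrf1* KO lists (3.32% of 1869 and 2.00% of 6145 peaks). The *Uhrf1* KO peaks were thus called against other background reads. The paper states that aligned reads were subsampled to a similar number per library before calling, and reads in peaks are not by themselves a measure of sequencing depth. Whether the deposited lists had equal depth was not tested. The smallest ChIP count of a peak was 14 in *Uhrf1* KO replicate 1 and 25 to 27 in the other lists. The effect of genotype on the presence of a peak cannot be told apart from that of depth, of the background or of other differences between the lists.

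UHRF1 binds hemimethylated CpG sites behind the replication fork, reads methylated H3K9 and recruits the maintenance methyltransferase DNMT1, so that DNA methylation is copied to the new strand. DHX9 is a nuclear helicase that unwinds RNA and RNA:DNA hybrids. At imprinting control regions, the methylated parental copy is bound by ZFP57, a KRAB zinc finger protein that recognises TGCCGC with a methylated CpG, and TRIM28 and SETDB1 deposit H3K9me3 there.

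The guide used to edit *Uhrf1* matched chr17:56312150-56312169 (GRCm38, plus strand) at 1 place on the chromosome, in coding exon 5 of all 6 annotated *Uhrf1* transcripts. It is shown with the genomic PAM in capitals, which is not part of the guide.
*Uhrf1* guide and PAM: ggtcatggccaactataacgTGG

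The next 8 stretches of 160 bases come from members described below, 5 at imprinted loci and 3 elsewhere, each chosen for its values and at the place outside untranslated exons where TGCCGC was densest (GRCm38, plus strand, with TGCCGC or its reverse complement GCGGCA in capitals, overlapping matches included). The stretch of the *Nespas* member is chr2:174295887-174296046, that of *Mest* chr6:30737596-30737755, *Snrpn* chr7:60004348-60004507, *Airn* chr17:12741762-12741921, *Peg3* chr7:6730052-6730211, *Pank4* chr4:154972739-154972898, *Habp4* chr13:64169887-64170046 and *Polrmt* chr10:79736462-79736621.
*Nespas*: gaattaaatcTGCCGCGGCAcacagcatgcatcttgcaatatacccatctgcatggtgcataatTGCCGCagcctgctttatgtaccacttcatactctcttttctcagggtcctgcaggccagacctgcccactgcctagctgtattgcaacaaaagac
*Mest*: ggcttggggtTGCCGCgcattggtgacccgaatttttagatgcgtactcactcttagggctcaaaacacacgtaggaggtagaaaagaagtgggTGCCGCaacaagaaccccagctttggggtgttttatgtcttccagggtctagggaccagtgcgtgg
*Snrpn*: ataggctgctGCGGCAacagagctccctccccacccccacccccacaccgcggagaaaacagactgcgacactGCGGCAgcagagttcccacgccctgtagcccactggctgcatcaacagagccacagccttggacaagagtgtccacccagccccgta
*Airn*: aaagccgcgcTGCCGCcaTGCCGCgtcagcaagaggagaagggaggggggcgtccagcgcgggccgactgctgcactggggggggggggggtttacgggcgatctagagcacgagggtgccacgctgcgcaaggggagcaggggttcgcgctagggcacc
*Peg3*: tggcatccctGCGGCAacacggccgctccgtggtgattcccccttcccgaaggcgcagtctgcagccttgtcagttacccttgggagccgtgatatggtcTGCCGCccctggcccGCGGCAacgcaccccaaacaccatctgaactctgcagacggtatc
*Pank4*: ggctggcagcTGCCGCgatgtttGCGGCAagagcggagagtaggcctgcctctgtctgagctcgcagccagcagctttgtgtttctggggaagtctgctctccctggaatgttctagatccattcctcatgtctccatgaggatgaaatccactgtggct
*Habp4*: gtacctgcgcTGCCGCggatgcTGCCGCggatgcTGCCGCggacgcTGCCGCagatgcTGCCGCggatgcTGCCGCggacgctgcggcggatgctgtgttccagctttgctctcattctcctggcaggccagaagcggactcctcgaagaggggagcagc
*Polrmt*: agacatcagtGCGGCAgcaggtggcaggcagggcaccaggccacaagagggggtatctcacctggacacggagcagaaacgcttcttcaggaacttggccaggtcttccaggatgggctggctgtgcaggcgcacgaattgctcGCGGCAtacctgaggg
The stretches held 2 or 3 matches, except for *Habp4*, where all 6 matches of the region fell into a short tandem array.

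Members were weaker than kept regions in the libraries where both had peaks. The log2 fold over background, the authors' ratio of ChIP to background reads scaled to library size, is given for the highest peak of a region in each library. The members' median was 0.90 and 0.89 in wild-type replicates 1 and 2 and 0.84 and 0.80 in *Dhx9* KO replicates 1 and 2, against 1.45, 1.47, 1.20 and 1.34 for kept regions. The median member held 117, 105, 123 and 98 ChIP reads in these libraries and its highest peak stood at percentile 37.6, 37.03, 42.1 and 32.3 of the list. Over the members' called length there were 39.4, 37.7, 42.2 and 41.03 reads per kb, against 56.6, 54.8, 52.3 and 56.98 for kept regions. These levels bear on whether a peak is called and so belong to the choice of members.

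The share of regions without a *Uhrf1* KO peak fell with strength, as the plot of peaks by strength of the region shows. Of the regions whose lowest log2 fold in the 4 libraries was at most 0.5, 33.1% were members. This share was 20.6% from 0.5 to 0.75, 10.9% from 0.75 to 1, 5.33% from 1 to 1.5 and 2.11% from 1.5 to 2. Above a log2 fold of 2 it was 0.829%, or 13 of 1569 regions.

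**Figure D1:**
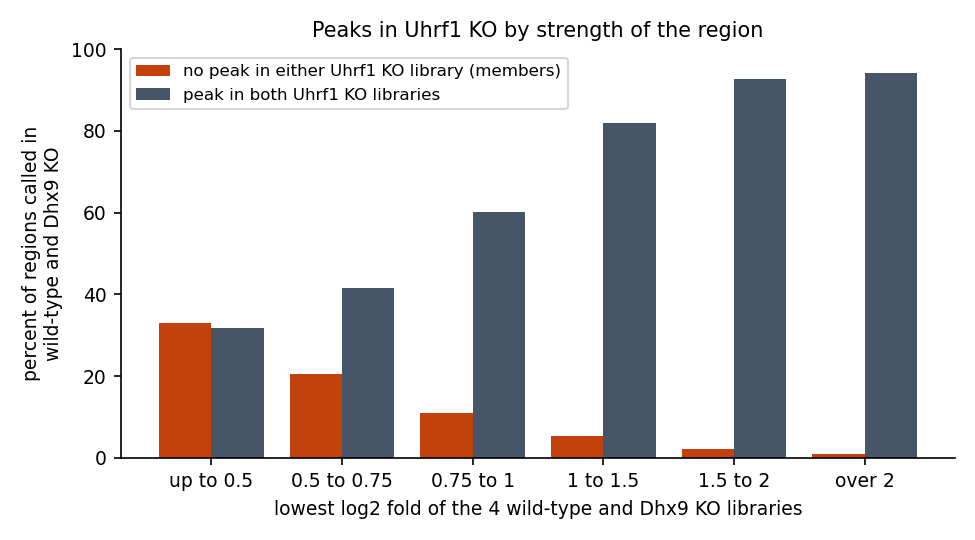
Share of the 55331 regions called in wild-type and *Dhx9* KO cells that lacked a peak in the *Uhrf1* KO libraries (members) or had one in both, in percent (vertical axis), by the lowest log2 fold of the 4 wild-type and *Dhx9* KO libraries (horizontal axis). Members fell from 33.1% in the weakest range to 0.829% in the strongest, and regions with a peak in both *Uhrf1* KO libraries rose from 31.9% to 94.2%.

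The weakest members, ranked by the highest of their 4 log2 folds, lay in an intron of *Zfpm1* (chr8:122294601-122326200; log2 folds of 0.20, 0.30, 0.28 and 0.19), at *Slc7a5* and *Gm34168* (chr8:121868001-121898000; 0.25, 0.23, 0.36 and 0.27) and in *Col18a1* and *Slc19a1* (chr10:77042001-77053800; 0.32, 0.36, 0.33 and 0.34), each in the order wild-type replicates 1 and 2 and *Dhx9* KO replicates 1 and 2. Just outside the rule were regions with a single weak peak in *Uhrf1* KO replicate 2, in *Arhgap10* (chr8:77336401-77351600, log2 fold of that peak 0.12 with 418 reads), at *Cbfa2t3* (chr8:122684401-122758000, 0.16 with 430 reads) and near *Gas6* (chr8:13499001-13509600, 0.16 with 252 reads). Of the 55331 regions, 811 had a *Uhrf1* KO peak in replicate 1 alone and 12560 in replicate 2 alone. Without *Uhrf1* KO replicate 1 there would be 8184 members, without *Uhrf1* KO replicate 2 20488, and without *Dhx9* KO replicate 2 12749.

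A small group of deep and strong members included imprinted loci. A criterion set after the values were seen, at least 200 ChIP reads and a log2 fold of at least 1.5 in both wild-type libraries, left 39 members, and 5523 kept regions met it too. It set no minimum in *Dhx9* KO cells, so the choice itself favours regions with lower *Dhx9* KO values. Of the 39, 12 (30.8%) lay at genes of a list of 42 imprinted genes, against 32 of all 7334 members (0.436%) and 6 of the 5523 kept regions (0.109%). This list was compiled with earlier results of these data known and is not independent evidence.

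At *Nespas*, an antisense transcript of the imprinted *Gnas* cluster, the member (chr2:174289001-174302800, centred on the promoter) had 1336 and 1362 reads in the wild-type libraries and 834 and 852 in the *Dhx9* KO libraries, with log2 folds of 2.31, 2.39, 1.39 and 1.62. The member at *Airn*, the non-coding transcript antisense to *Igf2r* (chr17:12721401-12751600), held 1734, 1706, 1260 and 1680 reads, with log2 folds of 2.38, 2.42, 1.72 and 2.18. Both *Dhx9* KO values were below both wild-type values at these loci, in reads and in fold. The member at *Nnat*, which lies in an intron of *Blcap* (chr2:157545401-157565200), held 1205, 1061, 572 and 570 reads, with log2 folds of 1.83, 1.66, 0.86 and 1.305. At *Mest* (chr6:30727001-30741200, promoter) there were 850, 805, 581 and 597 reads and log2 folds of 2.10, 1.86, 1.32 and 1.37. At *Peg3* and *Usp29* (chr7:6722001-6733000) there were 806, 690, 416 and 599 reads and log2 folds of 1.92, 2.09, 1.46 and 1.4998. In reads and in fold, the *Dhx9* KO libraries were lower than the wild-type libraries at all 3 of these loci as well. The reads given for single members are sums over called peaks, not adjusted for called length, which differed between libraries. At *Nnat* this length was 18800, 16200, 12800 and 8000 bp.

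*Kcnq1ot1*, the non-coding RNA that silences genes around *Kcnq1* in cis, had a member with 732, 687, 575 and 670 reads (chr7:143294001-143307600; log2 folds of 2.08, 2.06, 1.27 and 1.21). *Zfp787* had one with 656, 594, 493 and 302 reads (chr7:6129801-6138800; 1.78, 1.74, 1.18 and 1.92) and was the exception among the 12, since its fold in *Dhx9* KO replicate 2 was above both wild-type folds. At *Impact*, which regulates translation (chr18:12971001-12976200), reads were 490, 462, 262 and 306, and at *Inpp5f* (chr7:128683201-128691000) 465, 577, 332 and 442. The members at *Plagl1* and its non-coding partner *Hymai* (chr10:13087801-13097000), at *Snrpn* and *Snurf* (chr7:60002601-60005600) and at *Nap1l5*, a gene inside an intron of *Herc3* (chr6:58905001-58908800), held 315, 494, 186 and 386, then 263, 318, 121 and 197, then 220, 230, 104 and 156 reads. In summed reads, *Dhx9* KO replicate 1 was the lowest library at each of these last 5 loci. In log2 fold this did not hold at *Nap1l5*, with 1.12 in *Dhx9* KO replicate 1 and 0.99 in replicate 2.

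TGCCGC was found in all 12 of these imprinted members, with 3 to 14 matches each over the whole region and a median of 8. *Nespas* and *Mest* had 14 matches each, *Snrpn* and *Airn* 10 each, and *Zfp787* 3. Their median CpG ratio (observed over expected) was 0.373, against 0.225 in the other 27 strong members. Those 27 held a median of 2 matches, with 21 of 27 having at least 1. These counts were not adjusted for length, and the 12 ran from 3000 bp at *Snrpn* to 30200 bp at *Airn*. Anywhere in the region, 34.1% of all members (median length 4600 bp) held the motif. So did 67.9% of the 5523 kept regions of the same depth and fold (9600 bp) and 84.6% of the 39 strong members (7400 bp). Per 10 kb there were 1.02 matches in all members, 1.42 in these kept regions and 4.46 in the 39. This last value pools the 12 imprinted members and the other 27, whose median counts were 8 and 2, and was not split between them.

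The list of imprinted genes placed 20 further members that did not meet the criterion of depth and strength, with 43 to 459 ChIP reads per library. They lay at *Zdbf2*, *Fkbp6* (2 members), *Herc3*, *Usp29* (5), *Magel2*, *Kcnq1ot1*, *Rasgrf1*, *Grb10* (2), *Meg3*, *Trappc9* (3), *Igf2r* and *Impact*. Their wild-type log2 folds ran from 0.38 to 2.15 and their *Dhx9* KO log2 folds from 0.19 to 2.04, 11 of the 20 held TGCCGC, and none held more than 4 matches. In all, 25 of the 34 imprinted genes with a region called in wild-type and *Dhx9* KO cells had a member (73.5%), against 3782 of 14996 (25.2%) over all genes. Counted by region, 34.04% of the 94 called regions at imprinted genes were members, against 16.0% of the regions at any gene. Among the genes with a called region and no member, *H19*, *Igf2*, *Dlk1*, *Peg10*, *Nhlrc1* and *Commd1* had a kept region. A kept region still had a called peak in every library, which does not mean that its level was unchanged. From read counts, the paper reports a decrease of H3K9me3 in *Uhrf1* KO cells at *Nhlrc1* and *Cdh15*, where no member lay. It reports the same at *Impact*, *Peg3*, *Airn*, *Mest*, *Snrpn*, *Kcnq1ot1* and other loci with a member. Losses that did not meet its thresholds are given for *H19* and *Peg13*, without a member, and for *Nespas*, *Inpp5f* and *Rasgrf1*, with a member. Over all its peaks, the paper's test called far fewer lower than there were members here, and more higher than lower. A missing peak and a tested change are different measures.

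The other 27 strong members were not at genes of the imprinted list. The deepest covered *Polrmt*, the mitochondrial RNA polymerase, and the end of *Hcn2*, a pacemaker channel (chr10:79730401-79744800, centred on an exon). It held the most wild-type reads of any member, 2272 and 2139, beside 1489 and 1495 in *Dhx9* KO cells, with log2 folds of 2.78, 2.58, 2.00 and 2.11. At *Pank4*, of the pantothenate kinase family (chr4:154966401-154979600), the member held 1217, 1135, 504 and 851 reads, with log2 folds of 1.97, 1.91, 1.53 and 2.08. The groups overlapped in fold. Their summed reads did not overlap, but the called length behind them was 11800, 12000, 5600 and 6800 bp. At *Habp4* (chr13:64165601-64175000) the member held 451, 469, 274 and 409 reads, with folds of 1.75, 1.60, 1.66 and 1.54, and the groups overlapped in fold. Introns of *Trim3*, an E3 ubiquitin ligase (chr7:105617001-105622800), and of *Dtnb*, a dystrobrevin (chr12:3588201-3592600), the promoter of *Pnpla1* (chr17:28855401-28861200) and an exon of *Repin1* (chr6:48594201-48600200) held further members of this kind, with 635, 390, 499 and 455 reads in wild-type replicate 1.

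**Figure D2:**
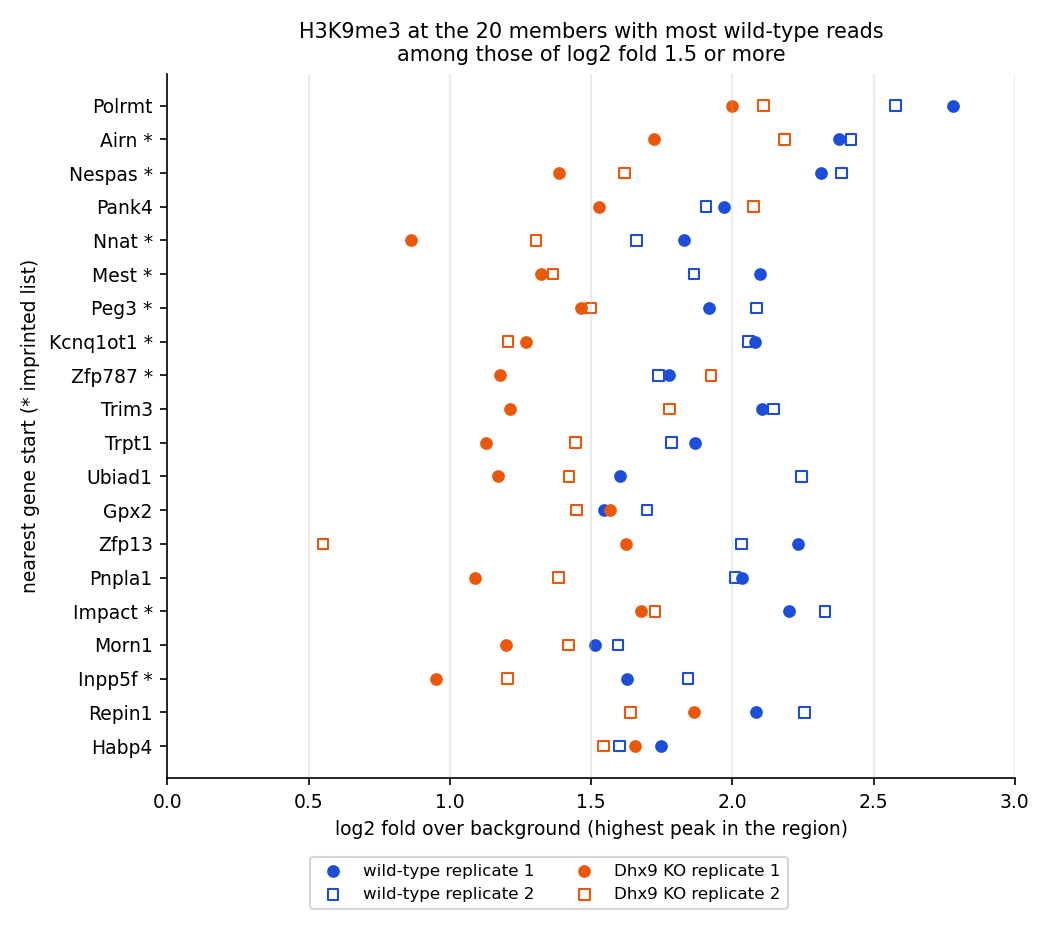
Log2 fold over background (horizontal axis) in each of the 4 libraries for the 20 members with most reads in wild-type replicate 1 among the 39 with at least 200 reads and a log2 fold of at least 1.5 in both wild-type libraries, named by the nearest gene start. Blue is wild-type and orange *Dhx9* KO, with replicate 1 as filled circles and replicate 2 as open squares. *Dhx9* KO points lie below both wild-type points at most loci, and overlap with them at *Pank4*, *Zfp787*, *Gpx2* and *Habp4*. Asterisks mark members at genes of the imprinted list, and the members shown were chosen for high wild-type folds.

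In fold alone, both *Dhx9* KO libraries were below both wild-type libraries in 11 of the 12 imprinted and 21 of the 27 other strong members, a group chosen for high wild-type folds. Without that choice, this held for 16 of the 32 members at imprinted genes (50%), for 2049 of the 7334 members (27.9%) and for 36.8% of the 55331 regions called in wild-type and *Dhx9* KO cells. Among kept regions it held for 14263 of 34626 (41.2%), a higher share than in members. The share in the 5523 kept regions of the same depth and fold was not counted. The reverse order held for 866 members (11.8%), for 2 of the 32, for 2277 kept regions (6.58%) and for 8.23% of the 55331 regions.

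Ranked by the lowest of the 4 folds, the 10 strongest members of at least 2 kb included *Polrmt* and *Airn*, and the other 8 were shallow, with 60 to 138 reads in wild-type replicate 1. The first lay between genes 16710 bp from *Gm33990* (chr7:53676201-53678800), with log2 folds of 3.18, 2.80, 2.34 and 2.43 from 89, 84, 71 and 75 reads, and repeats made up 75.4% of its bases. The others lay near *Gm42297* (chr4:70699401-70703000), *Sh2d3a* (chr17:57270601-57272600) and *Vmn1r55* (chr7:5163801-5165800), in introns of *Bmper* (chr9:23444001-23446200), *Cngb3* (chr4:19477801-19480200) and *Gm36117* (chr17:13035001-13038200), and in an exon of *Lipt1*, a lipoyltransferase (chr1:37874801-37877400).

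The 5 longest members were mostly weak. The longest, in *Plxdc1* (chr11:97948601-97988800, 40200 bp), held 1931, 1942 and 2081 reads in wild-type replicates 1 and 2 and *Dhx9* KO replicate 1 but 117 in *Dhx9* KO replicate 2, where peaks covered 2000 bp of it, with log2 folds of 0.26 to 0.37. The members at *Zfpm1* (31600 bp), *Sp6* (chr11:96986801-97017800) and *Ptp4a3* and *Gpr20* (chr15:73700001-73731000) also had their lowest read count in *Dhx9* KO replicate 2, with 375, 475 and 328 reads against 1281, 1141 and 1119 in wild-type replicate 1. The *Ptp4a3* member was not weak, with log2 folds of 0.99, 1.26, 1.20 and 0.90, and *Airn*, one of the strongest members, completed the 5. Among the 5 with most reads, the member at *Gpr179* and *Mrpl45* (chr11:97328201-97355400) was as weak, with log2 folds of 0.14, 0.18, 0.44 and 0.25 from 1394, 1300, 1471 and 785 reads. Most TGCCGC matches in the central 1 kb were found at *Habp4* and at *Gm996* and *Phpt1* (chr2:25575601-25580800) with 6 each, at *Nespas* and *Nap1l5* with 5 each, and at *Rassf5* (chr1:131232401-131245800), a Ras effector, with 4, a number shared by 6 members, *Snrpn*, *Pank4* and *Impact* among them. The *Gm996* member was weak, with log2 folds of 0.82, 0.50, 0.80 and 0.48 from 153, 159, 339 and 208 reads.

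The other gene families differed in how often they held a member. Over all genes with a region called in wild-type and *Dhx9* KO cells, 25.2% had one. This share by gene also depends on how many regions a gene holds. Counted by region, 4353 of 27257 called regions at any gene were members (16.0%). The counts were 6 of 59 at germline, 37 of 274 at zinc finger, 32 of 198 at olfactory and 7 of 105 at vomeronasal receptor genes. By region, the olfactory share was thus close to that of any gene. Of 49 germline genes that are silenced by promoter methylation in somatic cells, 35 had a region called in wild-type and *Dhx9* KO cells, 28 had a kept region and 5 had a member: *Sycp1*, *Syce1*, *Stag3*, *Mov10l1* and *Fkbp6* (14.3% of those called). The *Stag3* member alone reached the promoter (chr5:138273601-138282200), with 78, 69, 383 and 59 reads and log2 folds of 1.36, 1.33, 0.89 and 1.19. Of 400 zinc finger genes 154 were called, 32 had a member (20.8% of those called) and 123 a kept region, and the strongest of these members lay at *Zfp458*, *Zfp521*, *Zfp787* and *Zfp39*. Of 1118 olfactory receptor genes 192 were called, 32 had a member (16.7%) and 96 a kept region, led by members of 1000 to 2000 bp at *Olfr538*, *Olfr559*, *Olfr410* and *Olfr1419*. Members lay at 7 of 333 vomeronasal receptor genes (11.1% of the 63 called), with *Vmn2r16*, *Vmn2r1*, *Vmn2r23* and *Vmn2r11* the strongest, against 56 with a kept region. All 28 called protocadherin genes had a member, but they shared 3 regions on chromosome 18, because the transcripts of a cluster are nested. Of the 4 *Hox* genes called, *Hoxd3*, *Hoxb1* and *Hoxb3* had a member. Among the 4 called genes of H3K9 and DNA methylation, *Tet3*, a demethylating enzyme, had 4 members, *Dnmt3a*, a de novo methyltransferase, had 1 overlapping a promoter, and *Smchd1* had 1. The two-cell-stage genes *Usp17ld* and *Usp17lb* had a member each. Only 9 of 81 histone genes and 2 of 12 pluripotency genes had a called region, and none of these had a member. With so few called genes, this absence says little.

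Members lay in genes more often than kept regions did. By the centre of the region on the deposited annotation, 381 members (5.19%) were at a promoter, within 1 kb of a transcript start, and 252 of these at a promoter of a coding transcript. A further 381 (5.19%) were in an exon, 3210 (43.8%) in an intron and 3362 (45.8%) between genes. In kept regions these shares were 2.63%, 2.71%, 30.9% and 63.7%, in regions lost in both knockouts 4.61%, 5.65%, 50.2% and 39.5%, and over all regions called in both wild-type libraries 3.55%, 4.03%, 37.5% and 54.9%. The median distance to a start was 17008 bp for members and 28863 bp for kept regions. The share between genes was lower in members on 19 of 19 autosomes, and the share at promoters higher on 17.

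**Figure D3:**
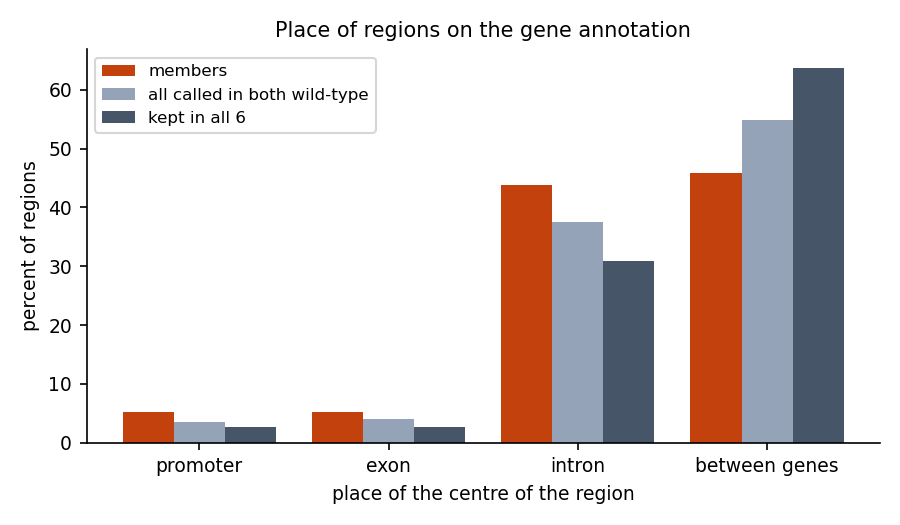
Percent of regions (vertical axis) whose centre lay at a promoter, in an exon, in an intron or between genes (horizontal axis), for members, for all regions called in both wild-type libraries and for kept regions. Members were between genes in 45.8% of cases, against 63.7% for kept regions.

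Members at promoters and in exons differed from those between genes. Median GC content was 48.9% at promoters, 49.6% in exons, 47.6% in introns and 46.4% between genes, and the CpG ratio was 0.187, 0.205, 0.176 and 0.147. A CpG-island window, 200 bases with at least 50% GC and a CpG ratio of at least 0.6, was present in the central 1 kb of 14.7%, 23.6%, 7.63% and 4.02% of them. TGCCGC was present in the central 1 kb of 10.8%, 19.2%, 8.88% and 6.40%. In exons the motif was more frequent in members than in kept regions (14.04%), whereas in the other 3 places it was less frequent (15.1%, 9.94% and 9.77%).

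In sequence, members were rich in GC and poor in CpG and in repeats. Their median GC content was 47.1% (kept regions 44.6%, all known autosomal bases 41.9%), yet the median CpG ratio was 0.164 against 0.196. Soft-masked repeats made up a median of 20.9% of the bases, against 35.9%, and 9.26% of members were masked over at least 50% of their length, against 35.5%. A CpG-island window was present in 29.9% of members and 55.8% of the longer kept regions, and in the central 1 kb, where lengths are equal, in 7.17% and 14.4%. The direction was the same on 19 of 19 autosomes for GC content, CpG ratio, repeats and island windows. Regions lost in both knockouts had a median GC content of 47.8%, a CpG ratio of 0.188, a masked share of 23.2% and island windows in 11.98% of central stretches.

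The motif of ZFP57 was not more frequent in members as a whole. TGCCGC, searched on both strands, was present in the central 1 kb of 614 members (8.37%), of 10.1% of kept regions, of 9.64% of all regions called in both wild-type libraries and of 5.89% of 1 kb tiles of the autosomes. CACGTG, the core of an E-box, was present in 11.99%, 10.8%, 11.9% and 9.62%, and TCCCGC, the core of an E2F6 site, in 9.05%, 10.7%, 10.2% and 6.79%. Matches of these motifs may share bases at their ends, and a match is a description of the letters alone.

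These differences were also present among regions of like strength, in ranges of fold set after the values were seen. Within each range of the lowest log2 fold, members had the higher median GC content, the lower CpG ratio, the lower masked share and the lower share between genes, as the plot of features by strength shows. In the range from 1 to 1.5, for example, 817 members had a median GC content of 47.0%, a CpG ratio of 0.135 and a masked share of 26.7%, against 44.2%, 0.190 and 41.0% in 12567 kept regions. Members of that range were shorter, with a median of 2400 bp against 6400 bp. In the strongest range, above 2, the masked share was 71.9% in 13 members and 74.6% in 1478 kept regions.

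**Figure D4:**
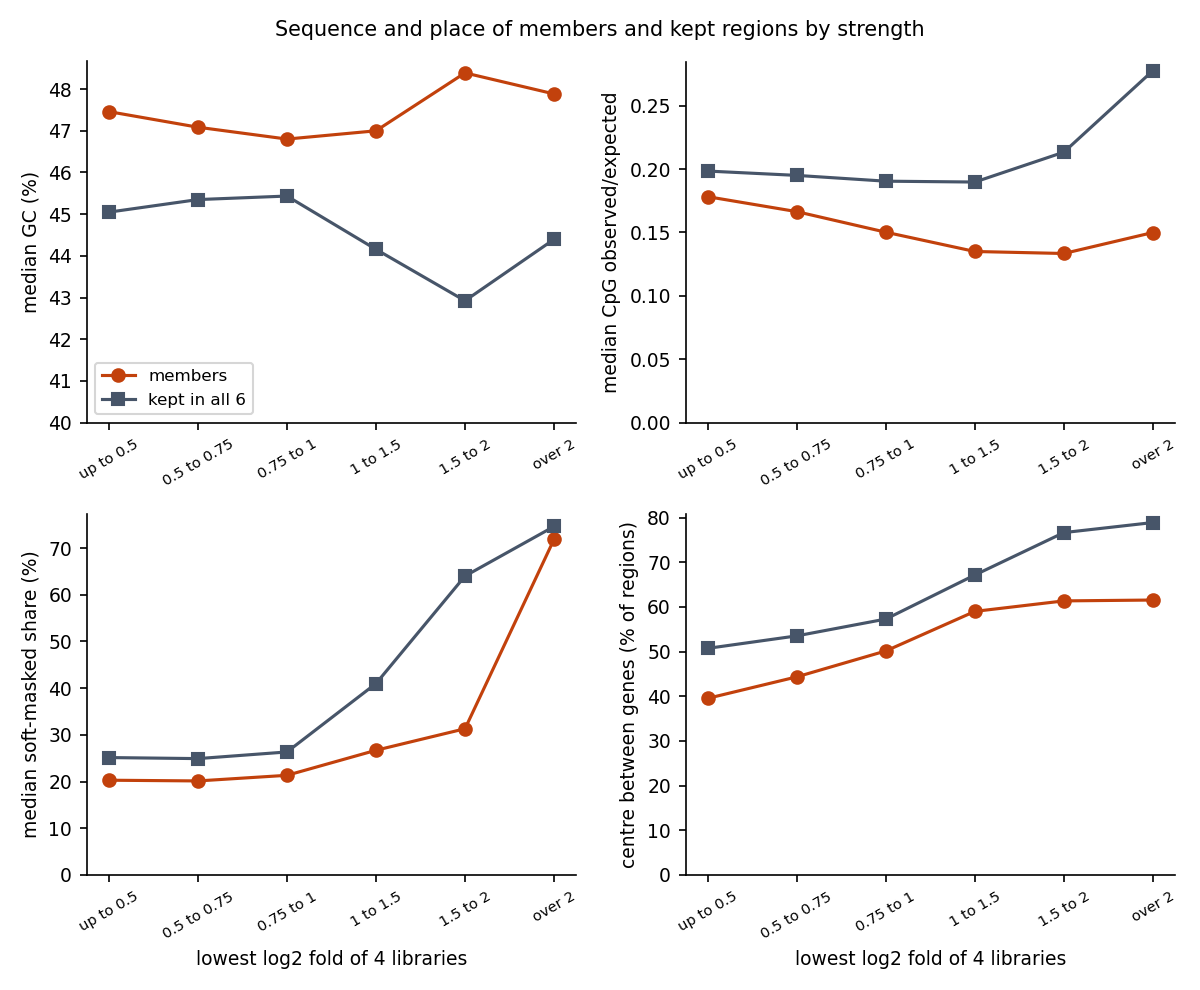
Median GC content, median CpG ratio, median soft-masked share and percent of regions centred between genes (vertical axes; that of GC starts at 40%) in members and in kept regions, by the lowest log2 fold of the 4 wild-type and *Dhx9* KO libraries (horizontal axes). The lines of members and kept regions do not cross in any panel, and masked shares meet above a log2 fold of 2, at 71.9% and 74.6%.

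The share of members also rose with GC content itself. In 5 equal groups of the 55331 regions by GC content, also set after the values were seen, it was 2.24%, 9.98%, 13.9%, 15.9% and 24.3% from the lowest to the highest. Within each group, members had the lower CpG ratio (0.131 against 0.176 in the lowest and 0.189 against 0.214 in the highest), the lower masked share and fewer island windows. Read counts moved with GC content in the same lists. At peaks with the same limits as in wild-type replicate 1, the median ratio of ChIP reads in *Uhrf1* KO replicate 1 to wild-type replicate 1 fell from 0.564 in the lowest GC group to 0.422 in the highest, while that of background reads rose from 0.587 to 0.652. In *Uhrf1* KO replicate 2 the ChIP ratio fell from 1.11 to 0.897 and the background ratio rose from 0.583 to 0.622. In *Dhx9* KO replicate 2, whose peaks members had to have, the ChIP ratio fell from 1.097 to 0.902, and in *Dhx9* KO replicate 1 it rose from 0.894 to 0.977. The part of these slopes in the choice of members was not tested.

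**Figure D5:**
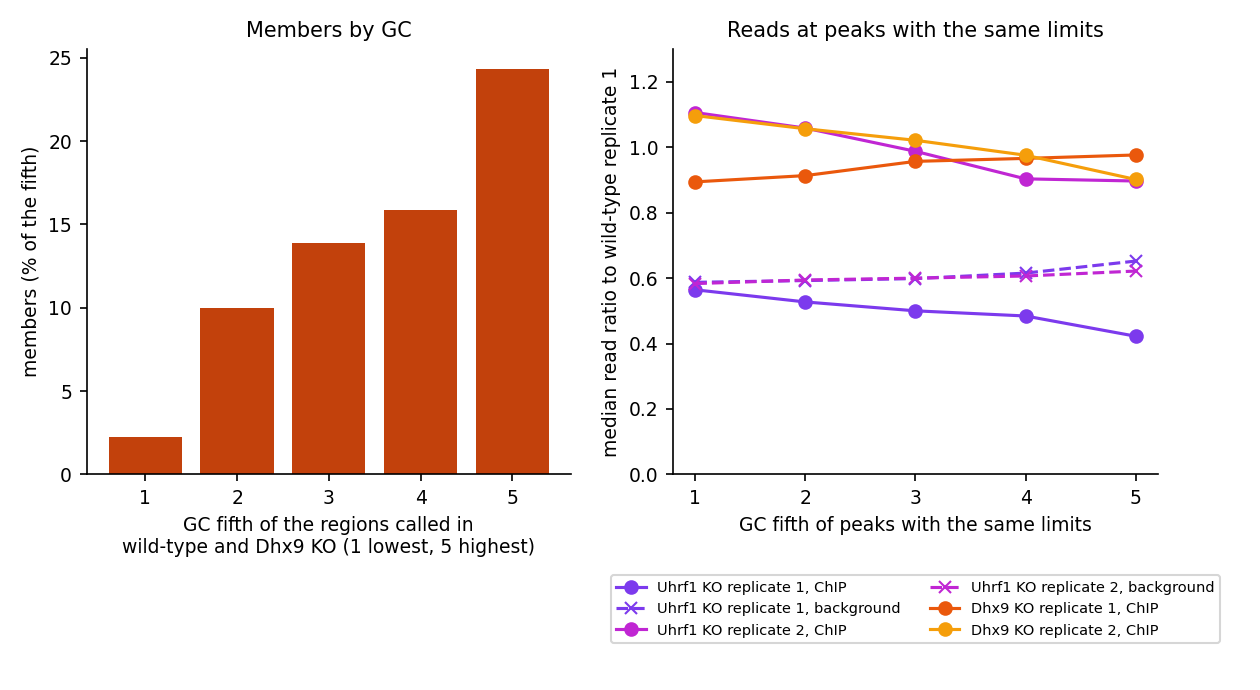
Left, percent of the regions called in wild-type and *Dhx9* KO cells that were members (vertical axis) in 5 equal groups by GC content (horizontal axis), rising from 2.24% to 24.3%. Right, median ratio of reads to those of wild-type replicate 1 at peaks with the same limits (vertical axis) in 5 equal groups of these peaks by GC content (horizontal axis), for ChIP reads (solid lines) and, in the *Uhrf1* KO lists, background reads (dashed lines). The ChIP ratio falls with GC content in both *Uhrf1* KO libraries and in *Dhx9* KO replicate 2.

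Members were spread over all autosomes. Their share of the regions called in wild-type and *Dhx9* KO cells ran from 8.98% on chromosome 8 to 19.2% on chromosome 11, with 18.1% on chromosome 2 and 16.2% on chromosome 7. Of 1732 windows of 1 Mb with at least 15 called regions, 195 had no member, and the median share was 11.5%. The windows with the highest shares were 37 to 38 Mb of chromosome 9 (15 of 28 regions), 75 to 76 Mb of chromosome 11 (8 of 15), and 141 to 142 Mb of chromosome 7 and 66 to 67 Mb of chromosome 9 (12 of 23 each). The window from 5 to 6 Mb of chromosome 16 had the most members (20 of 40). The median member lay 7000 bp from the nearest *Uhrf1* KO peak, 2987 members (40.7%) within 5 kb of one, and 408 (5.56%) more than 50 kb away. Another member was within 50 kb of 45.9% of members.

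The change in read counts between wild-type and *Dhx9* KO cells was tested, because members had peaks in all 4 of these libraries and the rule used no difference between them. A region that had lost its *Dhx9* KO peak could not be a member, so complete losses are not in the test. Reads were summed over a region's peaks, with the called length as an offset, in regions covered over at least 80% by peaks in each library. A region whose peaks narrowed in *Dhx9* KO cells was thus left out or had the change in length divided out. Partial losses by narrowing are therefore not measured. Of the 2860 regions tested, the quasi-likelihood test of edgeR, with p-values adjusted after Benjamini and Hochberg, called 8 lower (0.28%) and 1 higher (0.035%) in *Dhx9* KO cells. Of the 382 members among them, 0 were lower and 0 higher. At an unadjusted p under 0.05, 14 were lower and 18 higher, or 8.38% against 11.9% of all tested regions, and the members' median log2 change was 0.06 (range -0.94 to 0.65). The other members were not covered widely enough for this test.

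The 2 members nearest to the threshold were imprinted. The log2 change in *Dhx9* KO cells was -0.67 (SE 0.117, n = 2 libraries per genotype, edgeR adjusted p = 0.0534) at *Nespas* and -0.94 (SE 0.182, edgeR adjusted p = 0.0942) at *Snrpn*. With DESeq2, which called 17 regions lower in all (0.594%), both passed, with log2 changes of -0.67 (DESeq2 adjusted p = 0.00304) and -0.95 (DESeq2 adjusted p = 0.00857), and no other member did. Both also passed with the replicate number as a block (edgeR adjusted p = 0.0480 and 0.0218). By p-value the next of the 382 were *Dtnb* with -0.61 (SE 0.150, edgeR adjusted p = 0.174), *Polrmt* with -0.42 (SE 0.106, edgeR adjusted p = 0.187) and, in the other direction, an intron of *Lrsam1* with 0.65 (SE 0.171, edgeR adjusted p = 0.208). *Inpp5f* followed with -0.47, and then came 5 members with higher values in *Dhx9* KO cells, by 0.51 to 0.61, nearest to *Calcb*, *Gm41042*, *Olfr741*, *Sh2d4b* and *Gm40371*. When coverage of at least 50% was enough, 25 of 24183 regions (0.103%) were lower, and of the 2921 members tested then 1 was, at *Nap1l5* (log2 change -1.14, SE 0.190, edgeR adjusted p = 0.0455). In that fit *Peg3* changed by -0.40 and *Airn* by -0.37, with edgeR adjusted p-values of 0.299 and 0.333, and others were higher, such as *Meg3* with 0.42 (edgeR adjusted p = 0.376) and *Magel2* with 0.35 (edgeR adjusted p = 0.607). Of the 16 imprinted members in that fit, 11 had a change below 0 and 5 above. The counts differed when a library was left out, which leaves a genotype with 1 library that is assumed to vary like the pair of the other genotype. Without *Dhx9* KO replicate 1, 13 members were lower and 4 higher, among 161 and 138 of all regions, and without *Dhx9* KO replicate 2, 8 were lower and 13 higher, among 311 and 150. Without wild-type replicate 1, 1 member was lower, at *Snrpn*, and without wild-type replicate 2 none was (unadjusted p under 0.05: 4 lower and 6 higher), by edgeR. Without TMM scaling, which moved the median log2 change of all regions from 0.01 to 0.23, 1 member was lower and 9 were higher.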

How the data were processed

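H3K9me3 ChIP-seq peak lists of 6 of the 18 samples were used, 2 each of wild-type, *Dhx9* KO and *Uhrf1* KO cells. The other 12 samples were not analysed here. The authors aligned reads with Bowtie2 2.3.4.3 to GRCm38 and subsampled them to a similar number per library. They called peaks per library in 200 bp bins with epic2 0.0.51, keeping duplicate reads and naming wild-type input as the background. For each peak the deposited lists give a ChIP count and a background count in whole reads, the authors' p-value and FDR, their log2 fold of ChIP over background, and a score made by the authors from that log2 fold, which was not used. The deposited annotation (other values, the start and end of features) holds the 2762 bp reporter on chromosome 2 and was shifted back, after which 1824 of 2490 gene starts equalled those of RefSeq (0 before).

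The members and gene lists were chosen with earlier results of these data known. Named were the 10 strongest members of at least 2 kb by lowest fold, the 5 longest, the 5 with most reads, the 5 with most TGCCGC, members of the imprinted list and at germline promoters, members past the FDR, the 3 weakest with the 3 regions just outside, and up to 4 examples per other list. Other names were chosen after their values were seen. Sequence came from the GRCm38 reference in lower and upper case, with soft-masking as the repeat measure. Genes reached from 1 kb before their start to their end.

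*Dhx9* KO and wild-type counts were compared with edgeR 4.0.16 (R 4.3.3, TMM, FDR 0.05), with DESeq2 1.42.0 as an alternative. On simulated counts for this comparison over 2860 regions, 188 of 200 regions changed 2-fold were recovered, with 3 false calls. These counts were drawn at a single dispersion set in advance, not estimated from the libraries. Recovery at the spread of the real replicates, or of smaller changes, was not tested. With 2 libraries against 2, an exact permutation test of a single value cannot go below p = 0.333. No pair of replicates was a duplicate, since the chi-square per degree of freedom of their counts at identical peaks was 4.04 (wild-type, 9157 peaks), 6.68 (*Dhx9* KO, 3726) and 9.34 (*Uhrf1* KO, 2158). Python 3.11.15 was used for all other steps. Alternatives were stricter peaks, equal list sizes, other merging, overlap and promoter rules, other scalings and coverage, a replicate block and leaving out each library.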

Additional observations from a re-analysis of the deposited data

Results flagged for a closer look

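The sex chromosomes were outside the comparisons above. On chromosome X, 22 regions had the members' pattern of peaks, of 809 called in the wild-type and *Dhx9* KO libraries (2.72%), and on chromosome Y 0 of 37 had it. They stand here because they are signal in data that the comparisons did not use.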

How the results depend on the processing

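Of 250 alternative values 149 kept their direction and side of the threshold or moved little, and 81 moved further. Another 20 passed the threshold newly, and none turned direction. For shares, little meant within a 95% binomial interval over the members, and for counts within a set factor. Members are not replicates, so this interval does not measure the spread between libraries. The number of members (7334) was 3561 with peaks of an FDR of at most 1e-10, 2151 with peaks of a log2 fold of at least 1, 2144 with equal numbers of peaks per list, and 8184 to 20488 when a library was left out. For these first 3 settings in that order, 47.04%, 41.1% and 41.51% of members lay in an exon or intron (48.96% as reported), 48.08%, 53.7% and 52.85% between genes (45.84%), 93.88%, 94.14% and 92.16% were above the median GC content of kept regions (83.73%), 71.95%, 70.85% and 73.32% below their median CpG ratio (69.14%), 40.52%, 28.82% and 26.03% had a CpG-island window (29.92%), and 89.72%, 86.15% and 83.4% were below their median masked share (81.43%). Merging peaks up to 1 kb apart gave 32.42% with an island window and 80.2% below the masked median. Asking for 20% coverage gave 85.7% for GC content, 70.87% for the CpG ratio and 84.04% for masking. The central 1 kb gave 72.98%, 65.05%, 7.172% and 76.48% for GC content, CpG ratio, island windows and masking. Promoters held 20.52% with a reach of 5 kb and 17.59% with any overlap, and TGCCGC was in 34.14% of whole regions. Leaving out each library gave ranges of 4.666% to 5.428% for promoters, 47.73% to 51.96% for exon or intron, 42.61% to 47.27% between genes, 69.93% to 86.97% for GC content, 60.34% to 70.57% for the CpG ratio, 25.98% to 38.31% for island windows, 71.32% to 82.16% for masking and 8.089% to 9.114% for TGCCGC. Within 5 kb of their genes, 9 germline, 63 olfactory, 15 vomeronasal and 1 pluripotency genes had a member.

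In the *Dhx9* KO test, members lower numbered 2 with DESeq2, 1 without TMM and 1 at 50% coverage, and members higher 9 without TMM. Over all regions 17 (DESeq2) and 25 (50% coverage) were lower, and 95 (without TMM) and 0 (edgeR on all 55331 regions, where 1441 were higher at an unadjusted p under 0.05) were higher. Leaving out each library gave 0 to 13 members lower, 0 to 13 higher, and 6 to 311 lower and 1 to 150 higher of all. With the replicate number as a block, 2 members and 12 regions in all were lower and 1 higher. The numbers were shared labels only, since the deviations of same-numbered libraries correlated at r = -0.06 across regions (2 pairs). The filter on low counts removed no region. The cause of these shifts was not tested. The 382 members tested held a median of 85 to 93 reads per library.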
